A study of Mus musculus with 14 samples.

Results

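The cyclin-dependent kinase inhibitors of the mouse were followed across 14 arrays of sorted bone marrow cells that had lost Dnmt1 or kept it. The 7 genes Cdkn1a, Cdkn1b, Cdkn1c, Cdkn2a, Cdkn2b, Cdkn2c and Cdkn2d were taken by symbol and had 9 probe sets among the 22626 non-control probe sets of the array, which stand for 12393 genes. Cdkn1a and Cdkn1b had 2 probe sets each and the other genes 1 each. To be tested, a probe set had to exceed percentile 40 on 2 or more arrays. This held for 15556 probe sets (68.8%) and for 7 of the 9 inhibitor probe sets, from 5 genes. Cdkn2a and Cdkn2b fell below it and are given as values.

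Knockout mice were Dnmt1fl/fl with the Mx-Cre transgene, and control mice were Dnmt1fl/fl littermates without it, on a C57BL/6 background and 8 to 12 weeks old. Dnmt1 copies DNA methylation onto newly made strands. The Mx promoter responds to interferon, which poly(I)poly(C) induces, and it is active in many cell types besides the sorted ones. Poly(I)poly(C) was given to knockout and control mice alike, in 7 injections of 25 ug/kg that ended 4 days before the marrow was collected, so no group was untreated. Since Cre was present in the knockout mice only, an effect of Cre itself and of the loss of Dnmt1 cannot be told apart. Marrow of 4 to 6 mice of 1 genotype was pooled for a sample, so errors and p-values describe pools and not single mice. Sorting of lineage-depleted marrow separated Kit+ Sca-1- cells, the myeloid progenitors, from Kit+ Sca-1+ cells, of which those without CD34 are the long-term hematopoietic stem cells (LT-HSCs) and those with CD34 the multipotent progenitors (MPPs). LT-HSCs and MPPs had 2 knockout and 2 control arrays each, and myeloid progenitors had 3 and 3, which makes 7 littermate pairs.

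A cyclin-dependent kinase drives the cell through its division cycle when a cyclin binds it, and the inhibitors hold it back. The Cip/Kip inhibitors p21 (Cdkn1a), p27 (Cdkn1b) and p57 (Cdkn1c) bind complexes of cyclin and kinase. The Ink4 inhibitors p16 (Cdkn2a), p15 (Cdkn2b), p18 (Cdkn2c) and p19 (Cdkn2d) bind the kinases Cdk4 and Cdk6 and keep them from cyclin D. In mouse marrow p21, p57 and p18 are known as regulators of the quiescence or self-renewal of stem cells, and the Cdkn2a locus is kept silent by Polycomb proteins such as Bmi1.

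The deposited values are intensities, 1 per probe set and array. They were tested as log2(intensity + 16), quantile normalized, in 1 limma fit over all 15556 probe sets, with adjustment by the Benjamini-Hochberg method and a threshold of 0.05. Differences are on this log2 scale, each followed by its standard error (SE), and understate the changes of dim genes. Replicate arrays correlated at 0.939 to 0.988 and had median intensities of 41.1 to 49.1. A typical probe set had an SE of 0.29 to 0.35 within a population and of 0.19 for the mean of the 3 population differences, called the average below. Both Dnmt1 probe sets were lower on the knockout array of 7 of 7 pairs, with average differences of -0.63 ± 0.14 (1422946_a_at, adjusted p = 0.136) and -1.05 ± 0.16 (1435122_x_at, adjusted p = 0.00598, a probe set that may bind other transcripts). Where the deleted part of Dnmt1 lies is not stated in the labels, so the signal checks the genotype only in part. Cd34, by which the sort separates the cells, was lower in control LT-HSCs than in control MPPs by -4.17 ± 0.59 (adjusted p = 0.00335). The 11 tested stem cell genes, Cd34 included, had a median of -0.75 in control LT-HSCs minus control MPPs, with 0 called higher and 1, Cd34, called lower, where 1.13% of 8612 genes were called lower. At an unadjusted p under 0.05, 0 of them were higher and 5 lower, against 8.26% of those genes lower. Among the 5 were Cd34, on which the cells were sorted, the stem cell transcription factor gene Hlf (-1.58 ± 0.58) and the surface receptor gene Procr (-1.72 ± 0.67). Beside them, 14 B cell markers were brighter in the LT-HSC arrays, with a summed intensity of 8209 to 11262 in knockout and 9812 to 18092 in control LT-HSCs, and of 444 to 4569 on the other 10 arrays. In bulk samples, fewer cells of a type and less RNA per cell cannot be told apart.

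By limma, 0 of the 7 tested inhibitor probe sets passed in any comparison of knockout with control. For the average of the 3 populations 0.347% of all probe sets passed (54, and 142 with the littermate pair as a block, which still called 0 of the 7). In LT-HSCs 0.0771% passed (12, and 45 with the block), in MPPs 0.0579% (9, and 22 with the block) and in myeloid progenitors 0.141% (22, and 36 with the block), and the block called 0 of the 7 in each. At an unadjusted p under 0.05, 2 of the 7 were higher on average, against 3.12% of all probe sets, and 0 were lower, against 2.76%. With the block 2 were higher and 1 was lower, against 6.73% and 6.72% of all probe sets. The 2 higher were a Cdkn1a probe set and Cdkn1c in both fits, the 1 lower was Cdkn2c, and Cdkn1c passed the filter only through knockout arrays. The knockout array was the higher of its pair in at least 6 of 7 pairs for this Cdkn1a probe set and Cdkn1c, where 9.71% of all probe sets did this, and the lower in at least 6 of 7 for the other Cdkn1a probe set and for Cdkn2c, where 10.8% did. The test of whether the knockout effect differed between populations called 0 of the 7 and 0 of all 15556 probe sets for each pair of populations. At an unadjusted p under 0.05 these tests held 3.22% of all probe sets for LT-HSCs minus MPPs, 2.97% for LT-HSCs minus myeloid progenitors and 0.431% for MPPs minus myeloid progenitors, and 0 of the 7 in each. With the block the shares higher and lower were, in the same order, 4.02% and 4.24%, 3.98% and 3.99%, and 1.15% and 0.804%. The block also held 0 of the 7 in each.

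**Figure D1:**
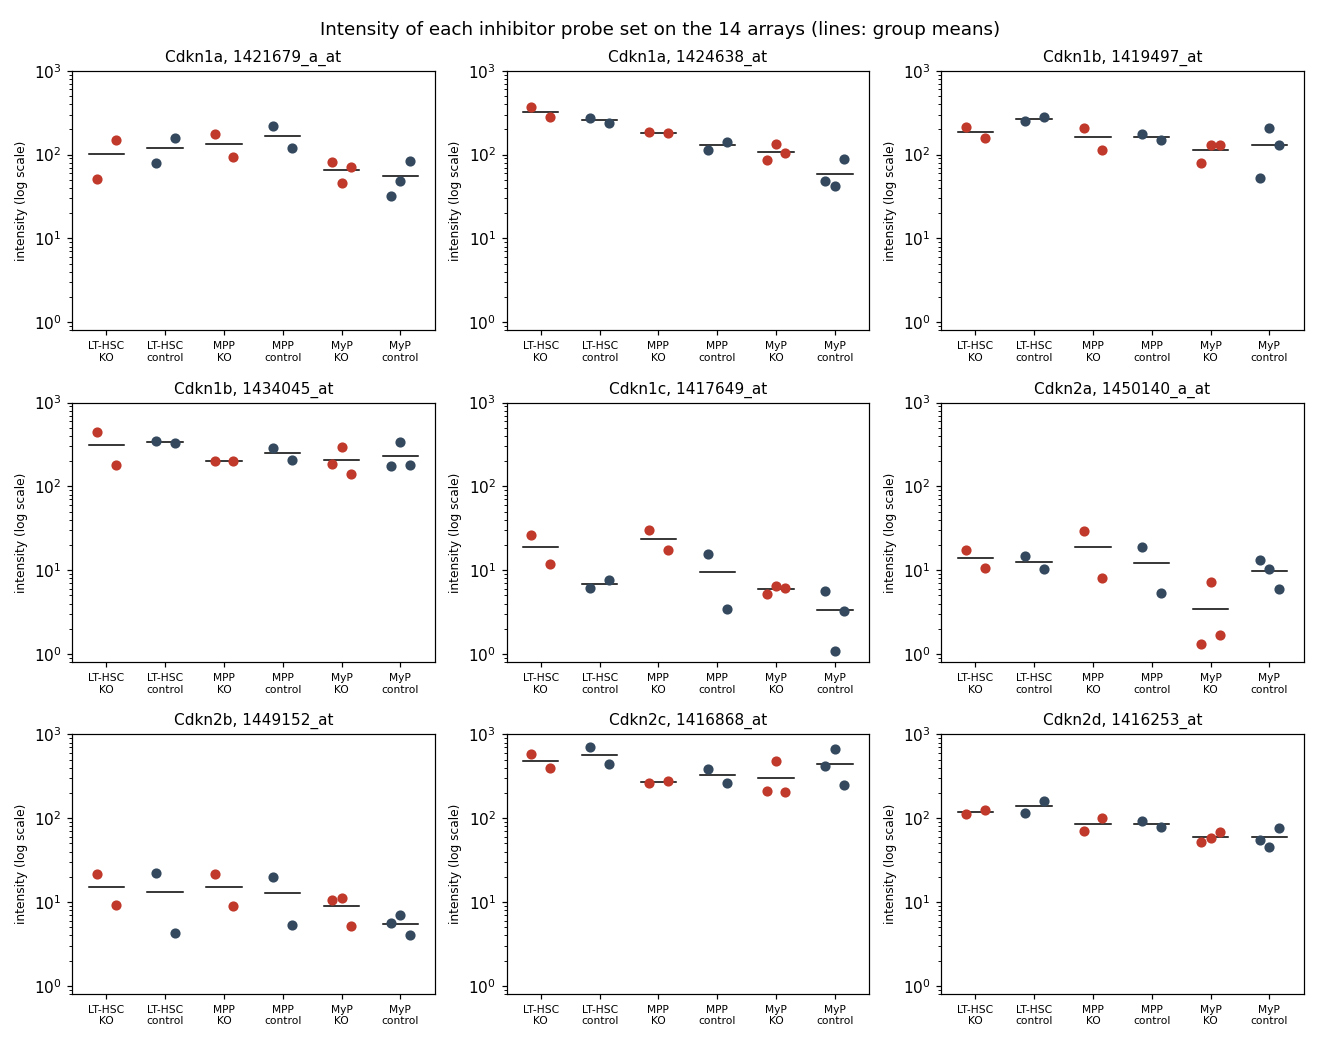
Intensity of the 9 inhibitor probe sets on the 14 arrays, on a log axis, with knockout (KO, red) left of control (dark) in LT-HSCs, MPPs and myeloid progenitors (MyP); each point is an array and each line a group mean. Cdkn1a 1424638_at and Cdkn2d are highest in LT-HSCs, and Cdkn1c, Cdkn2a and Cdkn2b stay at or below 30.06.

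Cdkn1a encodes p21, the Cip/Kip inhibitor that p53 induces after DNA damage. RefSeq (GRCm38.p6) gives it 2 promoter windows of 300 bases, 250 before the start of transcription and 50 after it. They are shown because the gene has both a p53-responsive and a CG-rich start, and Dnmt1 acts on cytosines in CG. In the upstream window (chr17:29090729-29091028, plus strand) the capitals mark matches to the p53 half-site, 10 bases long and searched on both strands by its consensus.

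Cdkn1a upstream window: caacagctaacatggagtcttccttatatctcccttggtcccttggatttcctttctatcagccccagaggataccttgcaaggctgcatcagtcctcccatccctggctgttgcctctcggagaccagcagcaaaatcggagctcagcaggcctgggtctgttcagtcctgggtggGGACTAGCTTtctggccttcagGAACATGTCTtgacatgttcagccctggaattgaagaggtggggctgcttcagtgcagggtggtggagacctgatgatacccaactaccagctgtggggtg

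Cdkn1a downstream window: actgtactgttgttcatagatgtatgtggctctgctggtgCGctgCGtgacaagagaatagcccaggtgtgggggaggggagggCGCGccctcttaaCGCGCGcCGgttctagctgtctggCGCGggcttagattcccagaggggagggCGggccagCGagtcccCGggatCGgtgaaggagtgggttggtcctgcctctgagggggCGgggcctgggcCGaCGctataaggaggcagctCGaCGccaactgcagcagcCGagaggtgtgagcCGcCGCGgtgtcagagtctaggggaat

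The half-sites begin 73 and 51 bases before the start. At least 2 of them lie in 118 of 32851 mouse windows (0.359%), and at least 1 in 8.36%. This window has 2 CG. In the downstream window (chr17:29093519-29093818, plus strand) the capitals mark its 23 CG. Of all windows 14.1% have fewer CG than the upstream window and 78.5% have fewer than the downstream one, around a median of 7. A match of letters does not show that a site was bound or methylated in these cells, and neither was measured here.

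With probe set 1424638_at, Cdkn1a had intensities of 365.34 and 280.84 in knockout LT-HSCs, against 272.32 and 239.57 in control LT-HSCs. In MPPs it had 184.16 and 180.88 on knockout arrays, against 113.89 and 143.25 on control arrays. In myeloid progenitors it had 85.05, 134.7 and 104.97 on knockout arrays, against 47.79, 42.51 and 87.65 on control arrays. The knockout array was brighter in 7 of 7 pairs. The MPP groups did not overlap, nor after normalization did those of myeloid progenitors, where as deposited 1 knockout array lay below 1 control array. Nonoverlap with knockout above control held for 11.6% of all probe sets in MPPs and 3.01% in myeloid progenitors.

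For Cdkn1a 1424638_at the LT-HSC difference was 0.36 ± 0.32 and the MPP difference 0.51 ± 0.32, each from 2 arrays per genotype. Myeloid progenitors, with 3 per genotype, had 0.76 ± 0.26 (limma adjusted p = 1). The average was 0.54 ± 0.17, with a 95% interval of 0.17 to 0.92, and missed the threshold after adjustment over all probe sets (unadjusted p = 0.00767, adjusted p = 0.466). With the pairs as blocks it was 0.54 ± 0.15 (adjusted p = 0.149, within 0.149 to 1 over the alternatives). The effect in LT-HSCs minus that in myeloid progenitors was -0.40 ± 0.41, with an interval of -1.28 to 0.49.

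The other Cdkn1a probe set, 1421679_a_at, gave another picture. Its intensities were 51.24 and 149.53 in knockout LT-HSCs, against 78.31 and 159.87 in control LT-HSCs. They were 176.68 and 93.06 in knockout MPPs, against 217.02 and 119.84 in control MPPs, and 82.57, 45.44 and 70.9 in knockout myeloid progenitors, against 32.37, 48.7 and 84.58 in control ones. The knockout array was the higher in 1 of 7 pairs, and knockout and control overlapped in every population. The average difference was -0.09 ± 0.26, with an interval of -0.64 to 0.47 (limma adjusted p = 0.999). The 2 probe sets of Cdkn1a correlated with r of 0.37 across the 14 arrays, and the difference between their knockout effects was not tested. The transcripts bound by each of them are not stated in these sources. The pair in which 1421679_a_at was higher, the first of myeloid progenitors, also differed in the ratio of 3' to 5' Gapdh signal. This ratio, a measure of RNA integrity and amplification, was 2.33 on the knockout array and 5.27 on the control array. The same ratio for Actb hardly differed in this pair, at 1.13 and 1.18. The part of RNA integrity in the result was not tested.

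**Figure D2:**
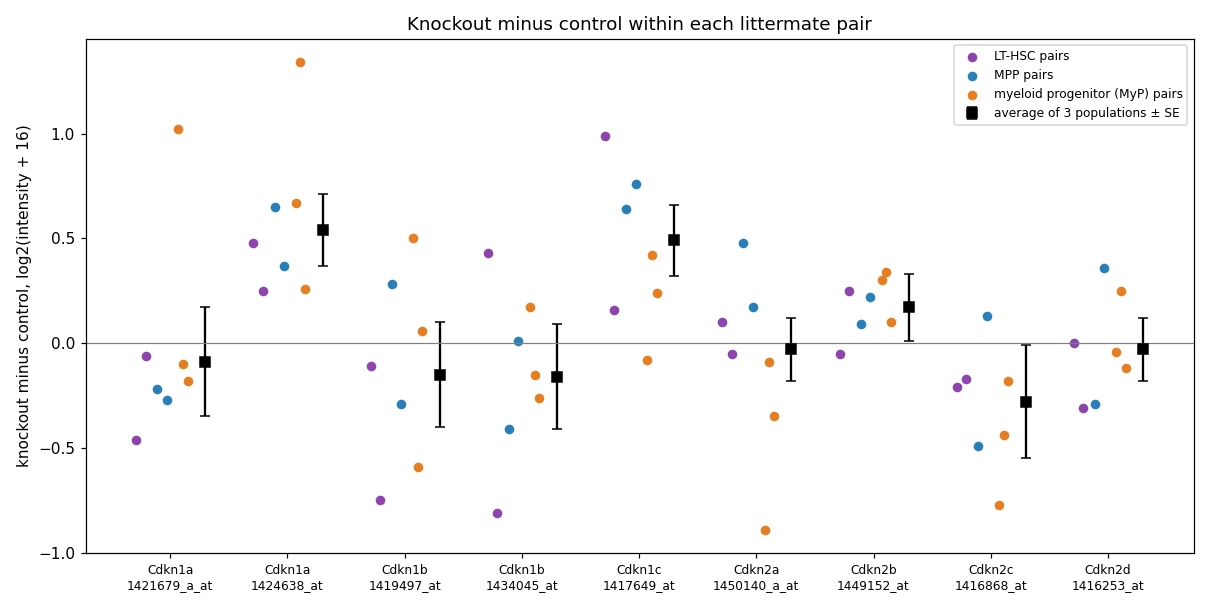
Knockout minus control in log2(intensity + 16) within each of the 7 littermate pairs for every inhibitor probe set, coloured by population, and the average of the 3 populations with its SE (black square). All 7 pairs of Cdkn1a 1424638_at and 6 of 7 pairs of Cdkn1c and of Cdkn2b lie above 0, and 6 of 7 pairs of Cdkn1a 1421679_a_at and of Cdkn2c lie below it.

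Cdkn1b encodes p27, whose amount is set largely by breakdown of the protein. Its probe set 1419497_at had 215.61 and 155.85 in knockout LT-HSCs, against 248.29 and 277.22 in control LT-HSCs. The knockout LT-HSC arrays both lay below the control arrays, as for 13% of all probe sets. In MPPs it had 207.84 and 114.56 in knockout, against 175.69 and 148.9 in control, and in myeloid progenitors 80.24, 130.71 and 129.88 in knockout, against 52.42, 207.39 and 130.59 in control, with overlap in both. The difference was -0.43 ± 0.45 in LT-HSCs and -0.15 ± 0.25 on average (interval -0.68 to 0.38, limma adjusted p = 0.999).

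The second Cdkn1b probe set, 1434045_at, had 451.84 and 179.43 in knockout LT-HSCs, against 351.9 and 326.32 in control LT-HSCs. It had 203.76 and 202.59 in knockout MPPs, against 290.49 and 207.34 in control MPPs. Knockout myeloid progenitors had 185.41, 296.7 and 140.31, against 175.35, 336.11 and 178.08 in control ones. Its average difference was -0.16 ± 0.25 (interval -0.70 to 0.39). For both Cdkn1b probe sets the knockout array was the higher in 3 of 7 pairs, and they correlated with r of 0.67 over the 14 arrays.

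Cdkn1c encodes p57, and its gene is imprinted: the maternal copy is active, and methylation of DNA at a nearby control region sets which copy is silent. Its signal was near the bottom of the arrays, on average at percentile 23.7. It had 26.31 and 11.87 in knockout LT-HSCs, against 6.22 and 7.65 in control LT-HSCs. It had 30.06 and 17.54 in knockout MPPs, against 15.67 and 3.44 in control MPPs. In myeloid progenitors it had 5.17, 6.41 and 6.18 in knockout, against 5.71, 1.08 and 3.24 in control. In LT-HSCs and in MPPs every knockout array was above every control array, as for 12.4% and 11.6% of all probe sets.

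The 2 arrays on which Cdkn1c exceeded the filter, at 19.8 to 26.9 units depending on the array, were a knockout LT-HSC array and a knockout MPP array, so its entry into the test depended on the knockout arrays. Knockout minus control was 0.57 ± 0.30 in LT-HSCs, 0.70 ± 0.30 in MPPs, 0.19 ± 0.25 in myeloid progenitors and 0.49 ± 0.17 on average (interval 0.13 to 0.84, unadjusted p = 0.0106, limma adjusted p = 0.559). The average lay between 0.18 and 1.2 over the alternatives, at a pseudocount of 64 and of 1. The gene is dim enough that the constant added before the logarithm sets much of the size of its difference.

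Markers of other cells also had positive medians for knockout minus control, beside the Cdkn1a and Cdkn1c values. Of 12 tested erythroid markers, 0 passed on average and 11 were above 0, with a median of 0.61, against -0.01 for all 8612 genes tested. An unadjusted p under 0.05 was reached upward by 7 of them, against 3.2% of those 8612 genes. Epor, the erythropoietin receptor, was at 1.12 ± 0.25 (limma adjusted p = 0.131) and Slc4a1, the anion exchanger of red cells, at 0.85 ± 0.17 (adjusted p = 0.0601). The summed intensity of the 13 erythroid markers was 7009 to 9501 in knockout and 4673 to 11288 in control LT-HSCs, 6007 to 6034 in knockout and 2894 to 4484 in control MPPs, and 6559 to 8049 in knockout and 6472 to 8245 in control myeloid progenitors. T and NK cell markers had a median of 0.36, with 4 of 12 higher at an unadjusted p under 0.05, and their sum over 15 markers was 1676 to 2645 in knockout and 716 to 884 in control LT-HSCs. In the other populations that sum overlapped between the genotypes, at 954 to 1164 in knockout and 626 to 1097 in control MPPs, and 602 to 1038 in knockout and 713 to 1104 in control myeloid progenitors. In these lists 1 erythroid marker and 3 T and NK cell markers were below the filter. The part of these cells in the inhibitor values was not tested.

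Cdkn2a encodes p16 and, from another start and reading frame, p19Arf, which stabilises p53. RefSeq has 2 windows for it. The upstream one, chr4:89294570-89294869 on the minus strand of GRCm38.p6, is shown because it is the most CG-rich of the inhibitor windows, and the capitals mark its 45 CG.

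Cdkn2a upstream window: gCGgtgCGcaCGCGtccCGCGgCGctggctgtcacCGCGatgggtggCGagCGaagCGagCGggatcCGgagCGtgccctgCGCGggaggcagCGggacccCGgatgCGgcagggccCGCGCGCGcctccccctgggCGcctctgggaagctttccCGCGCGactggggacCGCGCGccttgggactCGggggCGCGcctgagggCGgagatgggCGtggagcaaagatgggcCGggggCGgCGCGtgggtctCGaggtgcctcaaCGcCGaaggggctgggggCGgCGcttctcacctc

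Of all windows, 98.1% have fewer CG. The downstream Cdkn2a window has 12, more than 60.4% of windows. The RNA of Cdkn2a stayed dim in Dnmt1 knockout cells. Its intensity was 17.6 and 10.55 in knockout LT-HSCs, against 14.93 and 10.36 in control LT-HSCs, and 29.67 and 8.04 in knockout MPPs, against 18.79 and 5.31 in control MPPs. In myeloid progenitors it was 1.32, 7.19 and 1.7 in knockout, against 13.3, 10.25 and 5.93 in control. A single array of the 14, a knockout MPP array, exceeded the filter. In a fit without the filter the average difference was -0.03 ± 0.15. Whether this probe set binds the transcript of p16, that of Arf or both is not stated in these sources.

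Cdkn2b, the p15 inhibitor that TGF-beta induces, lies beside Cdkn2a. It had 21.53 and 9.12 in knockout LT-HSCs, against 22.09 and 4.3 in control LT-HSCs, and 21.62 and 9.04 in knockout MPPs, against 20.0 and 5.39 in control MPPs. Knockout myeloid progenitors had 10.63, 11.16 and 5.21, against 5.56, 7.0 and 4.05 in control ones. In LT-HSCs and MPPs it was the pair number and not the genotype that separated its values: arrays of the first pair lay at 20.0 to 22.09 and those of the second at 4.3 to 9.12. Cdkn2a split by pair number in the same way, at 14.93 to 29.67 and 5.31 to 10.55. The share of all probe sets with such a split was not computed, so it is not known to be particular to these genes. None of the 14 arrays was above the filter for Cdkn2b, and the average difference in the fit without the filter was 0.17 ± 0.16, with the knockout array higher in 6 of 7 pairs. Mtap, the neighbouring gene of the locus that was tested, was at 0.11 ± 0.15.

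Cdkn2c encodes p18. It had 580 and 396.5 in knockout LT-HSCs, against 699.42 and 448.65 in control LT-HSCs. In MPPs it had 260.43 and 281.66 in knockout, against 389.51 and 266.49 in control. In myeloid progenitors it had 211.57, 484.88 and 205.98 in knockout, against 423.59, 675.67 and 246.21 in control, and the second pair was the highest in both genotypes. The groups overlapped in each population, while within pairs the knockout array was the lower in 6 of 7. The average difference was -0.28 ± 0.27 (interval -0.86 to 0.30, limma adjusted p = 0.999). With the pairs as blocks it was -0.28 ± 0.12, with an unadjusted p of 0.0396 and an adjusted p of 0.346, the lowest of its alternatives (up to 1).

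Cdkn2d encodes p19Ink4d, a protein distinct from p19Arf. It had 111.39 and 125.16 in knockout LT-HSCs, against 115.67 and 162.67 in control LT-HSCs, and 70.87 and 100.78 in knockout MPPs, against 92.12 and 77.78 in control MPPs. The knockout myeloid progenitor arrays had 52.0, 58.59 and 67.79, against 55.61, 45.4 and 77.37 on the control arrays. Knockout and control overlapped in all 3 populations as deposited, but on the normalized scale both knockout LT-HSC arrays lay below both control ones, as for 13% of all probe sets. The average difference was -0.03 ± 0.15, the narrowest interval among the tested inhibitors (-0.36 to 0.30). Its difference between populations is given with the comparison of the control groups.

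The control populations were compared to give the level of each inhibitor by sorted population. The LT-HSC arrays also carried bright B cell markers, and the part of B cells in the levels was not tested. Control LT-HSCs minus control myeloid progenitors gave the only calls among the inhibitors in any of the 10 comparisons, with 2 of 7 probe sets higher in LT-HSCs and 0 lower, where 1.95% of all probe sets were called higher (304) and 5.33% in either direction (829). Control LT-HSCs minus control MPPs called 0 of 7 against 1.83% of all probe sets, and control MPPs minus control myeloid progenitors 0 of 7 against 0.0579%. At an unadjusted p under 0.05, 2 of the 7 were higher in each of these comparisons, against 6.99% of all probe sets for LT-HSCs minus MPPs and 4.18% for MPPs minus myeloid progenitors.

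Cdkn1a 1424638_at was higher in control LT-HSCs than in control myeloid progenitors by 1.87 ± 0.29 (limma adjusted p = 0.00206), and the value stayed between 1.37 and 2.13 under all alternatives, with an adjusted p of 0.00169 to 0.0342. Control LT-HSCs minus control MPPs was 0.92 ± 0.32 (adjusted p = 0.194) and control MPPs minus control myeloid progenitors 0.95 ± 0.29 (adjusted p = 0.282). The order of its levels was therefore LT-HSCs, MPPs and myeloid progenitors, with neighbours in it not past the threshold. Over both genotypes its median intensity was 276.58 in LT-HSCs (239.57 to 365.34), 162.06 in MPPs (113.89 to 184.16) and 86.35 in myeloid progenitors (42.51 to 134.7). All 4 LT-HSC arrays lay above the other 10. The other probe set, 1421679_a_at, had another order, with MPPs at a median of 148.26, LT-HSCs at 113.92 and myeloid progenitors at 59.8. Its control MPPs minus control myeloid progenitors was 1.34 ± 0.44 (adjusted p = 0.332) and its control LT-HSCs minus control MPPs -0.44 ± 0.48.

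Cdkn2d was the other inhibitor called, 1.02 ± 0.26 higher in control LT-HSCs than in control myeloid progenitors (limma adjusted p = 0.0331). The call was lost in 10 alternatives, among them leaving out either control LT-HSC array (adjusted p = 0.0889 and 0.111), and the adjusted p ranged over 0.0223 to 0.154. Its median intensity was 120.42 in LT-HSCs (111.39 to 162.67), 84.95 in MPPs (70.87 to 100.78) and 57.1 in myeloid progenitors (45.4 to 77.37). As for Cdkn1a 1424638_at, all LT-HSC arrays were above the other 10, which 2.15% of all probe sets showed. Both probe sets correlated with r of 0.84 over the 14 arrays, which share populations and pairs. The Cdkn2d window in RefSeq, chr9:21291160-21291459 on the minus strand of GRCm38.p6, is shown to set it beside those of Cdkn1a.

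Cdkn2d window: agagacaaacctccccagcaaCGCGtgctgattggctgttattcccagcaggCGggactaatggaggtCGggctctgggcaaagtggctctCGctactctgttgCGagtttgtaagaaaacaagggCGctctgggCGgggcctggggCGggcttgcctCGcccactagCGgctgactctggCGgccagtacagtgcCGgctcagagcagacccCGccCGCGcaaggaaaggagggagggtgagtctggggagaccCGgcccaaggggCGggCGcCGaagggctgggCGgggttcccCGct

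The capitals mark its 22 CG, more than in 76.9% of windows. It has 5 GC boxes (GGGCGG, on either strand, the core of the Sp1 site) and 1 p53 half-site. The downstream Cdkn1a window has 2 GC boxes and the upstream one 0. At least 1 GC box lies in 7 of the 9 inhibitor windows, from 6 genes, and in 35.7% of all windows. Cdkn1c had no entry. Of the remaining windows, that of Cdkn1b has 30 CG, that of Cdkn2b has 18, and the Cdkn2c windows have 8 and 33.

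**Figure D3:**
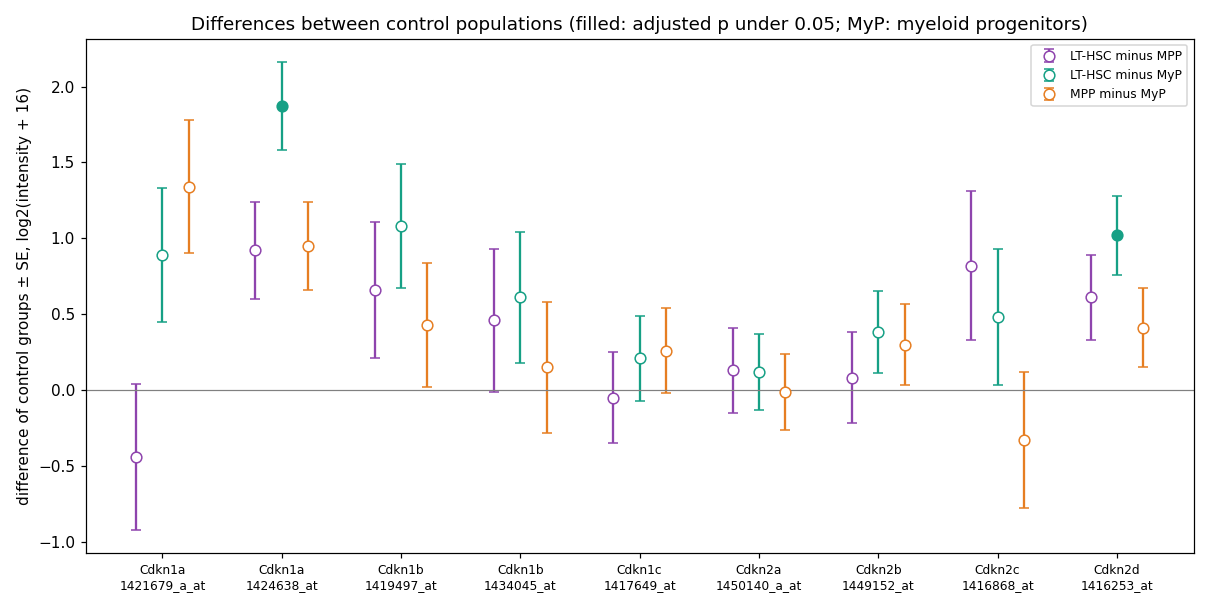
Differences between control populations for each inhibitor probe set, in log2(intensity + 16) with the SE, for LT-HSCs minus MPPs, LT-HSCs minus myeloid progenitors (MyP) and MPPs minus myeloid progenitors; filled points passed the adjusted threshold. Only LT-HSCs minus myeloid progenitors for Cdkn1a 1424638_at (1.87) and Cdkn2d (1.02) are filled.

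The remaining inhibitors had smaller or less certain differences between populations. Cdkn2c was 0.82 ± 0.49 higher in control LT-HSCs than in control MPPs (limma adjusted p = 0.479), and its 4 LT-HSC arrays (396.5 to 699.42) lay above its 4 MPP arrays (260.43 to 389.51), as for 4.65% of all probe sets. Its myeloid progenitor arrays spanned both, at 205.98 to 675.67. Cdkn1b 1419497_at was 1.08 ± 0.41 higher in control LT-HSCs than in control myeloid progenitors (adjusted p = 0.165) and 1434045_at 0.61 ± 0.43 (adjusted p = 0.474). Over both genotypes the LT-HSC and myeloid progenitor arrays overlapped for both probe sets. The ranges were 155.85 to 277.22 and 52.42 to 207.39 for 1419497_at, and 179.43 to 451.84 and 140.31 to 336.11 for 1434045_at. Cdkn1c was 0.21 higher in control LT-HSCs than in control myeloid progenitors, and its control arrays were all at or below 15.67.

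B cell markers moved with the LT-HSC values. Of 14 B cell markers, all above the filter, 11 passed as higher in control LT-HSCs than in control myeloid progenitors, with a median difference of 3.62, where 2.17% of 8612 genes passed as higher and 3.92% as lower. Their summed intensity was 9812 to 18092 in control LT-HSCs, 1150 to 3023 in control MPPs and 635 to 1750 in control myeloid progenitors. Granulocyte markers went the other way, with 5 of 11 lower and a median of -2.60. The first LT-HSC pair also had a higher 3' to 5' ratio of Gapdh, at 5.15 on the knockout and 5.44 on the control array, than the second pair, at 2.46 and 3.07. The Actb ratio went the other way, at 0.75 and 0.81 in the first pair and 1.09 and 0.97 in the second. Without both arrays of the first pair, Cdkn1a 1424638_at remained called at 1.72 ± 0.34 (limma adjusted p = 0.0235) and Cdkn2d was not, at 1.17 ± 0.31 (adjusted p = 0.069). The part of B cells in these differences was not tested.

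The cyclins and kinases are what the inhibitors act on. Of 19 cyclins, kinases and pocket proteins, 0 passed for knockout minus control on average, where 0.267% of 8612 genes passed as higher and 0% as lower, and their median was 0.03. At an unadjusted p under 0.05, 2 of them were higher and 0 lower, against 3.2% and 2.93% of those genes. Ccnd1, which encodes cyclin D1, was at 0.79 ± 0.31, and Rb1, whose protein the kinases phosphorylate, at 0.40 ± 0.16 (both limma adjusted p = 0.723). Between control LT-HSCs and control myeloid progenitors Ccnd3, the cyclin D3 gene, had a difference of 2.02 ± 0.32 in favour of LT-HSCs (adjusted p = 0.0022) and Ccna2, the cyclin A2 gene, one of 0.78 ± 0.19 (adjusted p = 0.0288). Of 24 proliferation genes 0 passed with genotype, with a median of 0.04. For control LT-HSCs minus control myeloid progenitors 18 of the 24 were above 0, with a median of 0.26. Of them 1 passed, the centromere histone gene Cenpa (0.98 ± 0.26, limma adjusted p = 0.0418). At an unadjusted p under 0.05, 4 were higher and 0 lower, against 8.99% and 11.2% of the 8612 genes. For control LT-HSCs minus control MPPs 21 of the 24 were above 0, with a median of 0.37. There 5 were higher and 0 lower at that unadjusted threshold, against 7.36% and 8.26% of the 8612 genes. Of 11 other regulators of the kinases 0 passed with genotype (median -0.05). Cdc25b, a phosphatase that activates the kinases, was higher in control LT-HSCs than in control myeloid progenitors by 1.41 ± 0.34 (adjusted p = 0.029).

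The p53 pathway controls Cdkn1a. Of 19 of its genes 17 were tested, 0 passed for the average, against 0.267% of 8612 genes higher and 0% lower, and the median was 0.11. An unadjusted p under 0.05 was reached upward by 3 and downward by 0, against 3.2% and 2.93% of those genes. Perp, a membrane protein gene that p53 induces, had 15.65 and 27.73 in knockout LT-HSCs, against 3.42 and 10.31 in control LT-HSCs. It had 60.22 and 410.09 in knockout MPPs, against 20.74 and 30.33 in control MPPs, and 59.66, 102.08 and 187.86 in knockout myeloid progenitors, against 42.72, 8.4 and 36.14 in control ones. Every knockout array of Perp was above every control array of its population, and the average was 1.48 ± 0.37 (limma adjusted p = 0.195). Separation in this direction held for 12.4% of all probe sets among LT-HSC arrays, 11.6% among MPP arrays and 3.01% among myeloid progenitor arrays. The share showing it in every population at once was not computed. Of the LT-HSC values of Perp, only 27.73 exceeded the filter, which lay at 19.8 to 26.9 units by array. Its MPP knockout values lay far apart, at 60.22 and 410.09.

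Phlda3, a p53 target that holds back Akt, was at 0.62 ± 0.18 on average (limma adjusted p = 0.367, higher in 6 of 7 pairs), with 101.98 and 89.33 in knockout LT-HSCs, against 30.51 and 40.38 in control LT-HSCs. In MPPs it overlapped, with 16.53 and 41.35 in knockout and 20.75 and 22.34 in control (0.20 ± 0.33), and so it did as deposited in myeloid progenitors, with 18.19, 30.68 and 22.1 in knockout and 8.6, 10.57 and 18.63 in control (0.49 ± 0.27). Aen, a nuclease gene induced by p53, was at 0.41 ± 0.15 (adjusted p = 0.62, higher in 5 of 7 pairs), with 813.03 and 684.81 in knockout LT-HSCs, against 417.83 and 438.51 in control LT-HSCs. Its MPP values were 499.19 and 586.16 in knockout and 497.28 and 386.9 in control (0.32 ± 0.27). In myeloid progenitors it overlapped, with 567.7, 663.28 and 438.44 in knockout and 646.46, 567.91 and 484.37 in control (0.04 ± 0.22). Gadd45a, a stress gene that p53 induces, was at -0.88 ± 0.31 in LT-HSCs (unadjusted p = 0.0143, adjusted p = 0.506) and at -0.18 ± 0.17 on average. Btg2, another p53 target, went the other way at -0.61 ± 0.31 (adjusted p = 0.893, lower in 7 of 7 pairs). Of all probe sets, 9.71% were higher on the knockout array in at least 6 of 7 pairs, and 10.8% were lower. In the order of average differences Cdkn1a 1424638_at stood after Perp and Phlda3, and Cdkn1a 1421679_a_at was among the genes below 0.

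**Figure D4:**
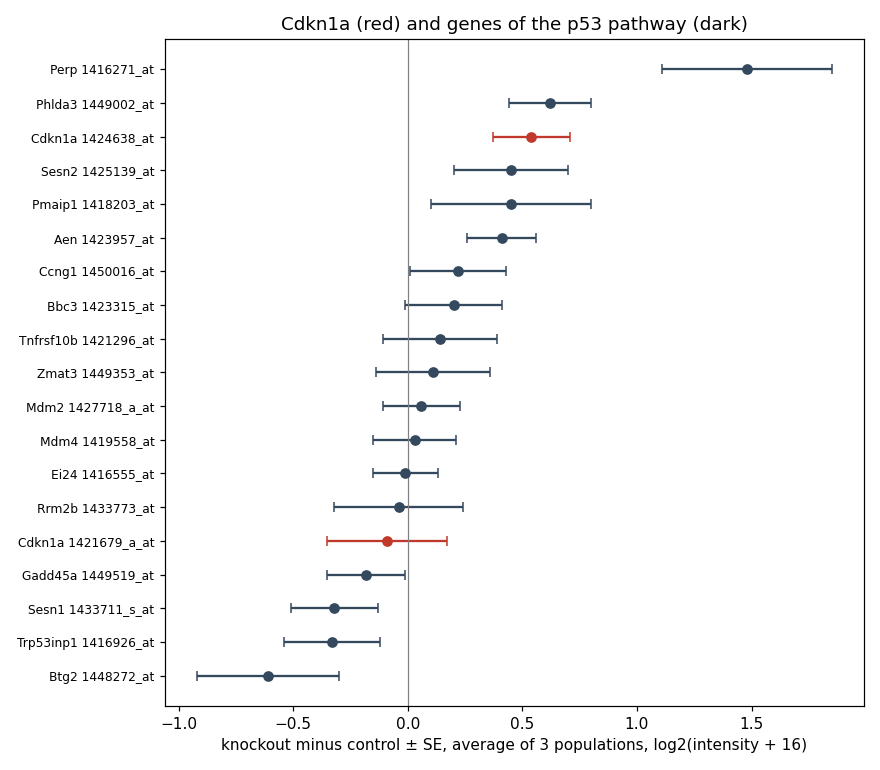
Average knockout minus control difference over the 3 populations in log2(intensity + 16), with its SE, for 17 tested p53 pathway genes (dark) and the 2 Cdkn1a probe sets (red), in order of size. Perp is the highest at 1.48 and Btg2 the lowest at -0.61, and none passed the adjusted threshold.

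The other regulator lists had 0 of their tested members past the threshold with genotype. For the average, 0.267% of 8612 genes passed as higher and 0% as lower. At an unadjusted p under 0.05, 1 repressor, 1 TGF-beta or FOXO gene and 1 imprinted neighbour were higher, against 3.2% of those genes. Lower were 1 TGF-beta or FOXO gene and 0 of the other lists, against 2.93%. The 12 genes of p27 and p57 turnover had a median of -0.05, with Skp2, the ligase subunit that marks p27 for breakdown, at -0.18 ± 0.16. The 15 tested repressors of the Ink4/Arf locus had a median of 0, with Pcgf2, a Polycomb protein also called Mel18, at 0.86 ± 0.33 (limma adjusted p = 0.704) and Ezh2, the Polycomb methyltransferase, at -0.21. The 17 tested TGF-beta and FOXO genes had a median of -0.21, with the receptor gene Tgfbr3 at 0.73 ± 0.26 (adjusted p = 0.62) and Smad7, an inhibitor of TGF-beta signals, at -0.40 ± 0.18 (adjusted p = 0.844). Of 15 imprinted neighbours of Cdkn1c, 8 were tested with a median of 0.01, and Phlda2, which is imprinted like Cdkn1c, was at 0.45 ± 0.20 (adjusted p = 0.817).

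Between control LT-HSCs and control myeloid progenitors single genes of the regulator lists passed. Of 8612 genes, 2.17% passed as higher and 3.92% as lower. Passing as higher were 1 of 17 tested p53 pathway genes, 1 of 12 turnover genes, 1 of 15 repressors and 1 of 8 imprinted neighbours. The 1 tested Ink4 locus neighbour also passed. Of 17 TGF-beta and FOXO genes, 1 was higher and 2 were lower. B cell markers had a median of 3.62 there, and their part in these differences was not tested. Foxo1, a transcription factor that can raise Cdkn1b, was 3.33 ± 0.37 higher in control LT-HSCs (limma adjusted p = 0.000247, with a probe set that may bind other transcripts), while Klf4 was lower by -3.02 ± 0.55 (adjusted p = 0.00554) and Gfi1, a repressor, by -1.61 ± 0.43 (adjusted p = 0.0462). Trp53inp1, a p53 target, was higher by 1.59 ± 0.35 (adjusted p = 0.0161), Fbxl12 of the turnover list by 1.21 ± 0.28 (adjusted p = 0.0235) and the Polycomb gene Cbx2 by 1.36 ± 0.33 (adjusted p = 0.0273). Cd81, a neighbour of Cdkn1c, was higher by 0.99 ± 0.21 (adjusted p = 0.0126) and Mtap by 0.95 ± 0.25 (adjusted p = 0.0412).

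The genes whose pattern over the 14 arrays was most like that of each tested inhibitor were found by Pearson's r, as a description. The search held 1 tested probe set a gene, that of highest mean, and left the inhibitors out. The arrays share populations and pairs. For Cdkn1a 1424638_at they were Clic4 (r = 0.94), Cd81 (0.93) and Rras (0.92), and Fgd4 was the most opposed (-0.95). For Cdkn1a 1421679_a_at they were Ptpn18 (0.94), Pafah1b3 (0.93) and Dmac2 (0.92). For Cdkn1b 1419497_at they were Zbtb7a (0.96), Leng8 (0.95) and Metap1d (0.94), and for 1434045_at Zc3h15 (0.94), Sf3b2 (0.92) and Dgkz (0.92). For Cdkn1c they were Tcf15 (0.90), Skil (0.87) and Pfkfb2 (0.84). For Cdkn2c they were Orc4 (0.95), Nprl2 (0.93) and Nek7 (0.92), and for Cdkn2d Prkch (0.91), Fryl (0.91) and Bcl11a (0.89). The genes of lowest r for the probe sets after the first were, in the same order, Tkt (-0.94), Cct7 (-0.96), Mrpl20 (-0.94), Vipas39 (-0.90), Krtcap2 (-0.92) and Ncf4 (-0.95). The 2 probe sets of a gene had no gene in common among these. Among the inhibitors themselves, r was also 0.84 for Cdkn1b 1434045_at with Cdkn2c, and was -0.32 for Cdkn1a 1421679_a_at with Cdkn2c.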

How the data were processed

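RNA of 14 sorted samples was amplified, labelled with biotin and hybridised to 1 Affymetrix array each, per the labels' protocols. The deposited series table holds an intensity for each probe set on each array, linear by its range of values. The authors' background correction, summary and scaling of it are not given in the sources used here, and arrays give no depth. Of 22690 probe sets, 64 controls were left out. Platform annotation gave 1 symbol to 20393 probe sets, several to 691 and none to 1606, and 20364 matched the RefSeq gene table of GRCm38.p6 by Entrez identifier, which changed 0 symbols. The table had 0 columns that were not used.

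Array medians differed by 0.19 and interquartile ranges by 0.32 in log2(intensity + 16), so values were quantile normalized. limma 3.58.1 (R 4.3.3) fitted the means of 6 groups (residual degrees of freedom 8, median prior 5.66, variance trended on the mean), two-sided, with Benjamini-Hochberg adjustment over the 15556 probe sets above the 40th percentile on at least 2 arrays. Each comparison of knockout with control, their differences between populations and the control populations came from this fit. The fit was tested on simulated data with independent noise on each array. The simulation held no likeness within littermate pairs, so it cannot show how the fit does with paired arrays. Python 3.11.15 prepared tables and figures. Same-numbered arrays are littermates, per the labels. Same-numbered arrays deviated from their groups together (r = 0.44 for LT-HSCs, 0.57 for MPPs, and 0.21, 0.54 and 0.59 for the 3 myeloid progenitor pairs). A fit with the pair as a block therefore stands beside the unblocked one where it moved a printed count over all probe sets by over 1.5 times. Named were all members, up to 4 genes of each list with the smallest p in a comparison and, per tested probe set, the 3 genes of highest r and the lowest. The members and the 16 gene lists were chosen with earlier results of these data known. For a gene in a list, the probe set with the highest mean was used. Alternatives were the pseudocount, normalization, filter, 1 probe set a gene, variance trend, array weights, the block, and leaving out each array. Leaving out the first LT-HSC pair was chosen after seeing the data.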

Additional observations from a re-analysis of the deposited data

Results flagged for a closer look

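Cdkn2a was lower on the knockout array in 3 of 3 myeloid progenitor pairs and higher in 2 of 2 MPP pairs. The differences within pairs were -0.89, -0.09 and -0.35 in myeloid progenitors, and 0.48 and 0.17 in MPPs. In a fit without the filter the knockout effect in MPPs minus that in myeloid progenitors was 0.77 ± 0.36, with an unadjusted p of 0.048 and a limma adjusted p of 1 over all probe sets. Cdkn2a was below the filter on 13 of the 14 arrays, with intensities of 1.32 to 29.67, and the direction in LT-HSCs was mixed. In LT-HSCs and MPPs its values split by pair number, at 14.93 to 29.67 in the first pairs and 5.31 to 10.55 in the second. The share of all probe sets with such a split was not computed.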

How the results depend on the processing

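Of 1204 recomputed inhibitor values, 39 changed sign, in 17 results, and 34 of these came from leaving out 1 array. No inhibitor was called in a comparison of knockout with control under any alternative, the pair as a block included, where the Cdkn1a 1424638_at average stayed at 0.54. The calls for control LT-HSCs minus control myeloid progenitors went to 1, that of Cdkn1a, without the filter, with array weights and without both LT-HSC arrays of the first pair, and were 1 to 2 when 1 array was left out. Signs changed for Cdkn1b 1419497_at in myeloid progenitors at a pseudocount of 1 (0.01), for Cdkn1b 1434045_at (0.06) and Cdkn2d (-0.14) in myeloid progenitors and for Cdkn2c in control MPPs minus control myeloid progenitors (0.17) with array weights, and for Cdkn1c in control LT-HSCs minus control MPPs (0.03) without the first LT-HSC pair. Leaving out 1 array moved knockout minus control of Cdkn1a 1421679_a_at over -0.83 to 0.31 in LT-HSCs, -0.67 to 0.18 in MPPs and -0.28 to 0.10 on average. For Cdkn1b 1434045_at it gave -0.92 to 0.54 in LT-HSCs, -0.42 to 0.03 in MPPs, -0.35 to 0.22 in myeloid progenitors and -0.40 to 0.09 on average, and for 1419497_at -0.41 to 0.40 in MPPs and -0.44 to 0.37 in myeloid progenitors. For Cdkn2c it gave -0.58 to 0.21 in LT-HSCs and -0.44 to 0.08 in MPPs, and for Cdkn2d -0.16 to 0.24 in MPPs, -0.11 to 0.16 in myeloid progenitors and -0.10 to 0.04 on average. Between control populations it gave -0.08 to 0.45 for Cdkn1b 1434045_at and -0.71 to 0.04 for Cdkn2c in MPPs minus myeloid progenitors, and -0.29 to 0.19 for Cdkn1c in LT-HSCs minus MPPs. Counts over all probe sets varied more: 829 calls for control LT-HSCs minus control myeloid progenitors became 480 without the first LT-HSC pair and 294 without control LT-HSC array 1, and 54 for the knockout average became 20 with 1 probe set a gene, 23 with array weights and 142 with the block. Over all alternatives the counts were 0 to 169 in LT-HSCs (12), 3 to 22 in MPPs (9), 6 to 55 in myeloid progenitors (22), 65 to 614 for control LT-HSCs minus control MPPs (285) and 0 to 246 for control MPPs minus control myeloid progenitors (9). The cause was not tested. Few arrays per group, and signal near background for Cdkn1c, Cdkn2a and Cdkn2b, limit what these data can show.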

Other observations

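Like the erythroid and the T and NK cell lists, the other marker lists had 0 members past the threshold for knockout minus control on average, by limma over all probe sets. Of 8612 genes, 0.267% passed as higher and 0% as lower. Of 11 tested stem cell genes, 3 were above 0 and the median was -0.19, against -0.01 for all 8612 genes tested, and 1 was higher at an unadjusted p under 0.05. B cell markers had a median of -0.06, megakaryocyte markers of 0.07, granulocyte markers of -0.02 and monocyte and dendritic cell markers of 0.14. At an unadjusted p under 0.05 these held 1 higher and 1 lower, 0, 0 and 1 higher, against 3.2% of the 8612 genes higher and 2.93% lower. Summed stem cell gene intensity was 1410 to 2275 in knockout and 887 to 2747 in control LT-HSCs, 2458 to 3558 in knockout and 2907 to 5559 in control MPPs, and 1318 to 1451 in knockout and 1337 to 1644 in control myeloid progenitors.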
